A study of Mus musculus with 12 samples.

Results

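Open chromatin was examined at 5 genes of the adipogenic transcription factor network in the mouse, Cebpa, Cebpb, Cebpd, Cebpg and Pparg. A peak belonged to a gene if it overlapped the annotated gene body (GENCODE M21 on GRCm38) extended by 20 kb on both sides. This gave 23 of the 91,354 peaks of the BGI peak set (3 at Cebpa, 9 at Cebpb, 1 at Cebpd, 5 at Cebpg and 5 at Pparg) and 24 of the 87,027 peaks of the Illumina peak set (4, 9, 2, 4 and 5). All of them passed the filter on low counts.

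The series compares 2 sequencers, a BGI DNBSEQ-G400 and an Illumina HiSeqX10, on the same Omni-ATAC-seq libraries, in which a transposase tags accessible DNA. Mouse embryonic fibroblasts (MEFs) were sorted as Thy1+ cells, and mouse embryonic stem cells (mESCs) as Thy1-/Ssea1+/Epcam+ cells. Both had a C57/Bl6 background, and the labels name no allele, agent, time or age for either. There were 6 libraries, described by the study as biological replicates (MEFs 1, 2 and 4 and mESCs 1, 3 and 5), and each was read on both platforms, which makes 12 samples in 4 groups of 3. Readings of 1 library on both platforms are not replicates of each other.

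C/EBP proteins are basic leucine zipper factors that bind DNA as dimers, and PPARγ is a nuclear receptor that binds together with a retinoid X receptor. In the textbook order of fat cell formation, C/EBPβ and C/EBPδ are induced early in a committed fibroblast-like cell, they act on Cebpa and Pparg, and C/EBPα and PPARγ then maintain each other and switch on the genes of lipid storage. C/EBPγ, encoded by Cebpg, lacks an activation domain of its own and acts as a partner of other C/EBP and ATF factors.

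Values are given as CPM, that is reads in a peak per 1,000,000 reads counted in the whole peak set, and the locus peaks of both sets are 502 bp wide. The samples of a set's own platform held between 15,860,985 and 21,662,775 reads in peaks on the BGI set and between 15,996,202 and 21,441,767 on the Illumina set. Promoter peaks of the markers followed the cell labels: on BGI, 5 of 6 fibroblast markers were lower and 6 of 6 stem cell markers higher in mESCs, and Pdgfra was the exception (24.7 ± 1.69 CPM in MEFs and 27.3 ± 3.51 in mESCs, SD, n = 3). Of the adipocyte markers Adipoq, Cidec and Plin1, Plin1 alone had a promoter peak. Of the macrophage markers, Ptprc and Adgre1 had no promoter peak, whereas Csf1r had 15.9 ± 1.38 CPM in MEFs and 2.13 ± 0.977 in mESCs on BGI (SD, n = 3). Of the muscle markers on BGI, Myod1 was higher (1.70 on the log2 scale) and Des lower (-1.52) in mESCs, and Myf5 had no promoter peak. Of the primitive endoderm and trophectoderm markers, Sox17 (2.50) and Gata4 (0.57) were higher, Gata6 was lower (-0.64) and Cdx2 had no promoter peak. Of the endothelial markers, Pecam1 and Tek did not pass and Cdh5 had no promoter peak. The part of other cell types in the results was not tested.

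The DNA in front of the starts of transcription is shown first, because these promoters differ in base composition. The sequences are from RefSeq promoters on GRCm38.p6, cut to the bases before the first transcribed base, and read 5′ to 3′ on the strand of the gene. Entries matched 4 of the 5 genes, and Cebpd is named only. Capitals mark matches, on either strand, to the GC box GGGCGG, the CCAAT box CCAAT, the TATA box TATAAA or the C/EBP pattern TTGCNNAA, which allows any base at N.
Cebpa, chr7:35119043-35119292, plus strand: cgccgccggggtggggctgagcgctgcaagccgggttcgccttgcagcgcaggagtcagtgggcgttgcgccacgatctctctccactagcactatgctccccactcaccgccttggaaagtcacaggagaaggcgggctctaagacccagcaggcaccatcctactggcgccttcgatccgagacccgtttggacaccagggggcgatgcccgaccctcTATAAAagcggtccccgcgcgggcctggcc
Cebpb, chr2:167688665-167688914, plus strand: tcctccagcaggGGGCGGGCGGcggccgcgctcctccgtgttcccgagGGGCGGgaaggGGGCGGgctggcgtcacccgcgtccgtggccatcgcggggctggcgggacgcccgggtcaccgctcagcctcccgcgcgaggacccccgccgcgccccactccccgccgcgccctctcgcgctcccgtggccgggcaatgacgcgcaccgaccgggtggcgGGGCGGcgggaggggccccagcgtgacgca
Cebpg, chr7:35056574-35056816, minus strand: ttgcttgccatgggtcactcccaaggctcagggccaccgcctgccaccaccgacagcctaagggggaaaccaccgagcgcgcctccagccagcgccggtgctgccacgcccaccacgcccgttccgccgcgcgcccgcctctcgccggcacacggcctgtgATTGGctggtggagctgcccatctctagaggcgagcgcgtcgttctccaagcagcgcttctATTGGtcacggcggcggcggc
Pparg, before the start at 115362292, chr6:115362099-115362291, plus strand: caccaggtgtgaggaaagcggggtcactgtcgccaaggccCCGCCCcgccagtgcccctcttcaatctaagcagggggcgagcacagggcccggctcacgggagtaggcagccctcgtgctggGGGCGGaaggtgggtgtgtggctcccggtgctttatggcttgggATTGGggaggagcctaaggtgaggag
Pparg, before the start at 115422066, chr6:115421816-115422065, plus strand: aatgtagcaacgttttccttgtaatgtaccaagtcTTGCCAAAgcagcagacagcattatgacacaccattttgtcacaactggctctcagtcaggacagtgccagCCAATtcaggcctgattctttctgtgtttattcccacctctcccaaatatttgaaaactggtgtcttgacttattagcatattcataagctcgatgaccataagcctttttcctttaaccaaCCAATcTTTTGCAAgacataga

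The Cebpb sequence had the highest GC content, 81.6%, with 5 GC boxes, and the one before the Pparg start at 115422066 the lowest, 40.8%, with no GC box. That last sequence held 2 matches to the C/EBP pattern and 2 CCAAT boxes, and it was the only one of the 5 at which no peak was present in any set. Cebpa had a TATA box, at position 221 of the 250 bases shown, and no other match, and Cebpg had CCAAT boxes on the reverse strand. Among the first 250 bases of the 32,851 promoters of the table, 32.7% held a GC box, 33.8% a CCAAT box, 12.4% a TATA box and 9.6% the C/EBP pattern.

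Away from the promoters, the largest changes of the 5 windows fell on a few sites. Shown are the central 120 bases of 4 of them on the plus strand of GRCm38, with matches to any of the patterns above or to the AP-1 pattern TGANTCA in capitals.
Pparg, last intron, chr6:115480440-115480559: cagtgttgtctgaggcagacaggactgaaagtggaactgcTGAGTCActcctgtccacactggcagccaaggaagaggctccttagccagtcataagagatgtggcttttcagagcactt
Pparg, behind the gene, chr6:115493530-115493649: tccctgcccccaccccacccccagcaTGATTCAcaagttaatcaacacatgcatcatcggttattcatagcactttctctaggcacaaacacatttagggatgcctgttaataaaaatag
Cebpg window, in a Pepd intron, chr7:35035338-35035457: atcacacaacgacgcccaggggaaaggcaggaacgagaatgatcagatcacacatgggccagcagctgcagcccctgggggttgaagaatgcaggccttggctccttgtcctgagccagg
Cebpg window, in a Pepd intron, chr7:35036454-35036573: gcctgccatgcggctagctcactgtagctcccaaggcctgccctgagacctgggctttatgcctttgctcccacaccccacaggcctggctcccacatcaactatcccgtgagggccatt

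Each of the Pparg sites had 1 AP-1 match, at positions 41 and 27 of the bases shown, and the Pepd intron sites had none of the patterns in these bases.

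The first comparison asked how accessibility at the 5 loci differs between mESCs and MEFs. On BGI, 16 of the 23 peaks passed an adjusted p of 0.05 (edgeR quasi-likelihood test, Benjamini-Hochberg over all peaks), 12 lower and 4 higher in mESCs. On Illumina it was 16 of 24, again 12 lower and 4 higher. The background was high, since 84.1% of all peaks passed on BGI (43.2% lower and 40.9% higher in mESCs) and 84.5% on Illumina (42.4% and 42.1%). The 69.6% called at the loci on BGI and 66.7% on Illumina lay below these shares. The median log2 fold change (mESC over MEF) of the locus peaks was -0.73 on BGI and -0.45 on Illumina, beside -0.08 and -0.03 over all peaks. MEF and mESC values did not overlap in 18 of 23 peaks on BGI (all peaks: 85.1%) and in 17 of 24 on Illumina (85.6%). A lower value can stem from fewer cells with the site open or from less accessibility per cell, which cannot be told apart in bulk samples.

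**Figure D1:**
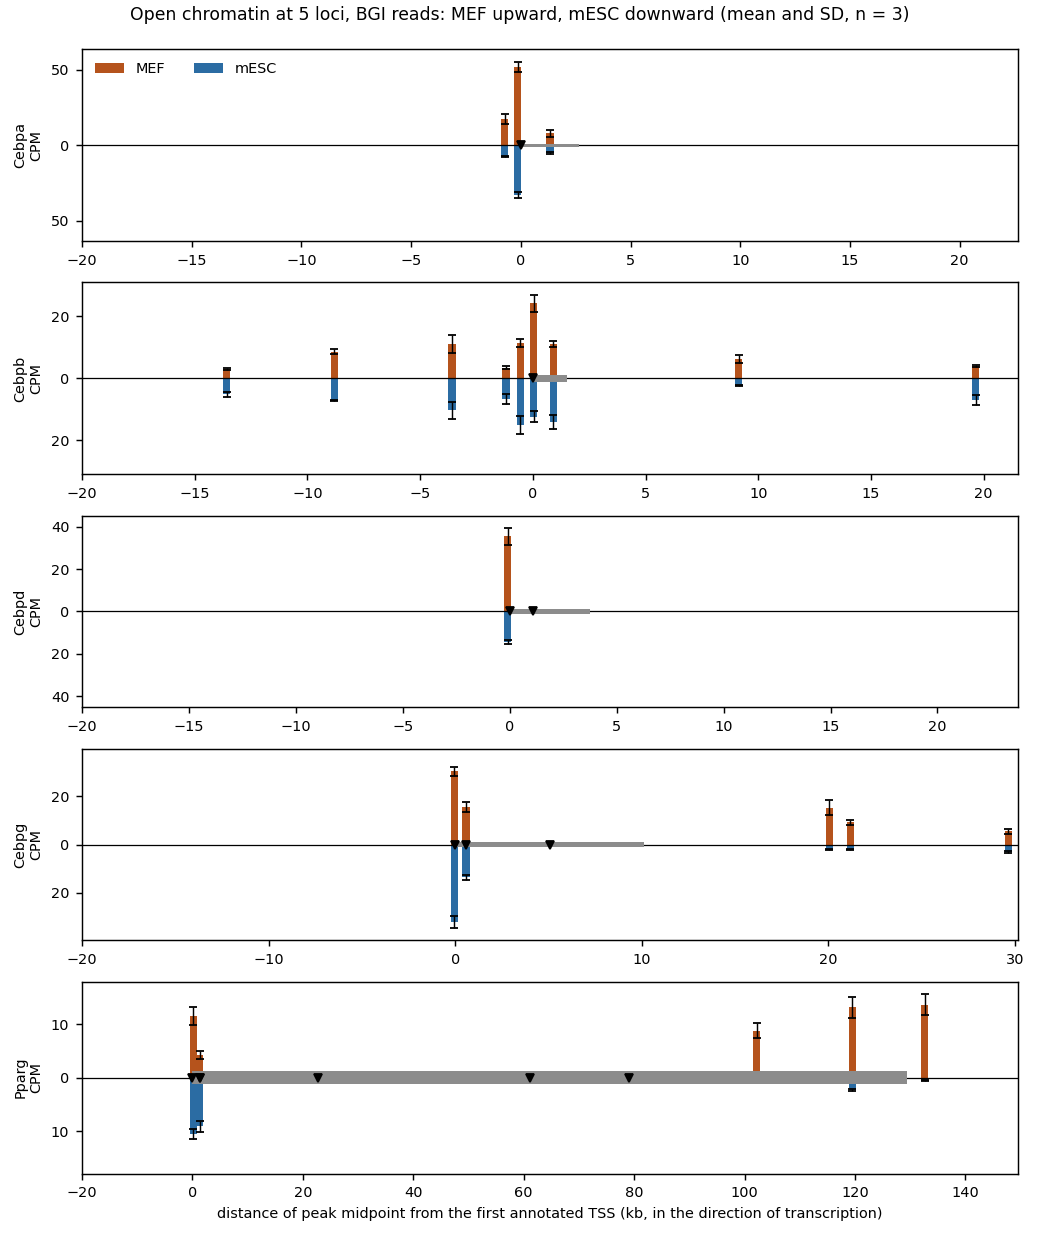
Mean CPM of each peak of the BGI peak set at the 5 loci, MEFs drawn upward and mESCs downward from the same zero line, with the SD over 3 libraries; the x axis is the distance of the peak midpoint from the first annotated transcription start, grey bars are gene bodies and triangles annotated starts. The highest promoter peak of each gene stood open in both cell types. The 3 peaks of Pparg far from its start and 2 of the 3 Pepd intron peaks in the Cebpg plot were far higher in MEFs than in mESCs. The third Pepd intron peak changed less (5.53 CPM in MEFs and 3.02 in mESCs).

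Peaks outside promoters were then set apart from promoter peaks. Of the 11 BGI peaks more than 1 kb from any annotated start, 7 were lower and 2 higher in mESCs, and 5 were lower by a log2 fold change of at least 2. All 5 lay in the Cebpg and Pparg windows. Over all BGI peaks 89.8% of those outside promoters were called (44.3% lower and 45.5% higher), and 29.8% of them were lower by at least 2. Without regard to position, 5 of 23 locus peaks were lower by at least 2, beside 22.2% of all BGI peaks, and 5 of 24 on Illumina, beside 20.8%. Of the 12 promoter peaks, 5 were lower and 2 higher, beside 72.3% called among all promoter peaks (41.0% lower and 31.3% higher), and none of the 12 was lower by at least 2, beside 6.54% of all promoter peaks. The 22 peaks matched between the sets by at least 50% of their width carried the same call on both platforms in 22 cases.

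**Figure D2:**
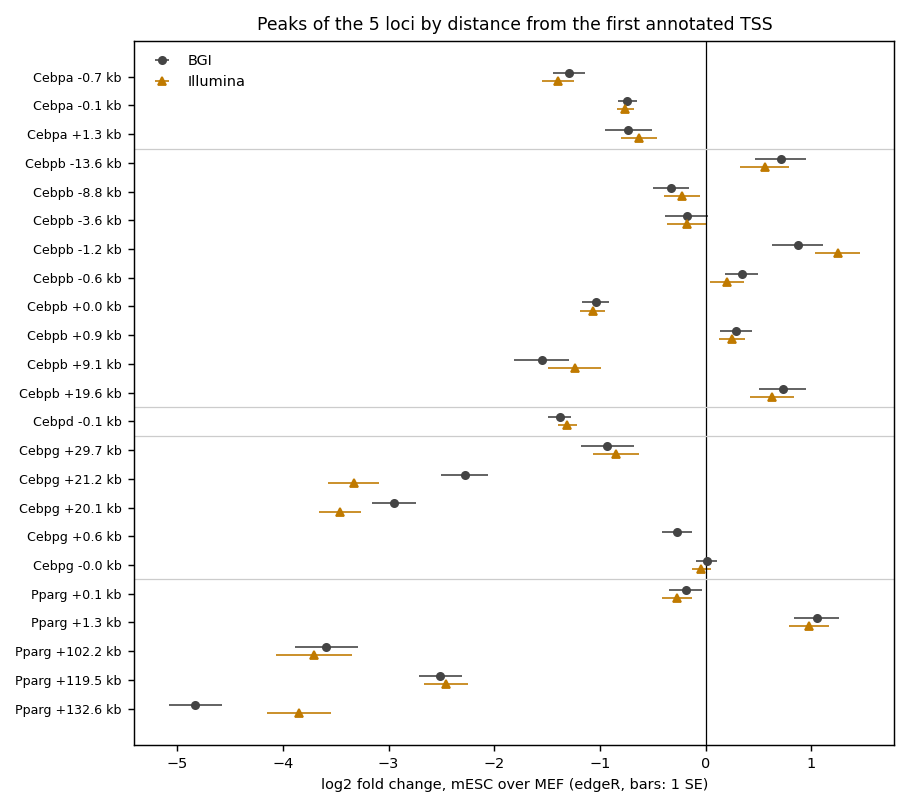
log2 fold change of mESCs over MEFs with 1 SE for the 23 peaks of the BGI set (circles) and the matching Illumina peaks (triangles), ordered by locus and position, with the distance from the first annotated start as label. The 5 values below -2 were those of 2 Pepd intron peaks and 3 Pparg peaks, and matched points lay within 1.05 of each other.

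Cebpa encodes C/EBPα, the factor that maintains the fat cell programme together with PPARγ. Its promoter peak (chr7:35118898-35119399), which spans the start of transcription and the beginning of the 5′ untranslated region, was the highest of the 5 windows. It had 52.9, 48.3 and 54.6 CPM in MEFs 1, 2 and 4 and 33.9, 33.8 and 30.3 CPM in mESCs 1, 3 and 5 on BGI. Every MEF library was above every mESC library, yet the site was well open in both cell types. The log2 fold change was -0.74 ± 0.09 (SE, edgeR adjusted p = 9.49e-07), a level 1.66-fold higher in MEFs, and -0.76 ± 0.08 on Illumina (edgeR adjusted p = 9.3e-08).

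A neighbouring peak with its midpoint at -736 bp from the start (chr7:35118307-35118808), within the antisense transcript Gm45091, changed more than the promoter itself. Its BGI values were 15.6, 15.8 and 21.0 CPM in MEFs and 7.82, 7.33 and 7.21 CPM in mESCs. The log2 fold change was -1.29 ± 0.15 (edgeR adjusted p = 4.29e-07), and on Illumina -1.40 ± 0.15. The third peak, over coding sequence and the 3′ untranslated region, fell by 0.73 on the log2 scale (8.04 ± 2.29 CPM in MEFs and 5.05 ± 0.779 in mESCs, SD, n = 3). A peak of the Illumina set without a BGI match, wholly in the coding sequence, had 9.35 ± 1.10 CPM in MEFs and 9.74 ± 0.34 in mESCs (SD, n = 3) and did not pass the test (log2 fold change 0.02 ± 0.15, edgeR adjusted p = 0.929). It had no summit inside it in any Illumina MEF library.

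Cebpb encodes C/EBPβ, an early activator, from a single exon that overlaps Tmem189, a gene on the other strand. Its 9 peaks went both ways. The promoter peak (chr2:167688696-167689197) covers the start and the 5′ part of the coding sequence and had 22.6, 22.6 and 27.3 CPM in MEFs and 14.2, 11.4 and 11.2 CPM in mESCs on BGI. The groups did not overlap, with a log2 fold change of -1.04 ± 0.13 (edgeR adjusted p = 8.58e-07) on BGI and -1.07 ± 0.12 on Illumina, 2.06-fold and 2.10-fold higher in MEFs. The levels themselves depended on the platform. Illumina gave 38.4, 35.8 and 43.7 CPM for the same MEF libraries.

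The Cebpb peak with the largest rise in mESCs lay at -1191 bp from the same start (chr2:167687474-167687975). It had 3.83, 3.48 and 2.89 CPM in MEFs and 7.88, 4.73 and 7.02 CPM in mESCs on BGI, with a log2 fold change of 0.87 ± 0.24 (edgeR adjusted p = 0.00305), and 1.25 ± 0.21 on Illumina. Thus 2 peaks of 1 promoter changed in opposite directions. Between them, a peak at -559 bp had 11.4 ± 1.25 CPM in MEFs and 15.1 ± 2.89 in mESCs (SD, n = 3), and did not pass the test on BGI (edgeR adjusted p = 0.0548). At this peak, the Cebpb peak at 167688106, 8 of 15 alternatives passed, with an adjusted p of 0.00826 to 0.0427. DESeq2 gave 0.023 and the 3 other scalings 0.00826 to 0.0332. Over the alternatives the log2 fold change of the peak ranged from 0.17 to 0.48. On Illumina its adjusted p was 0.25.

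Further out, the intronic peak in the long noncoding gene A530013C23Rik, 9138 bp downstream (chr2:167697803-167698304), had 7.29, 6.36 and 4.73 CPM in MEFs and 2.27, 2.31 and 1.99 CPM in mESCs. This was the largest fall at Cebpb, -1.55 ± 0.26 on the log2 scale (edgeR adjusted p = 2.35e-05). Peaks at -13,586 and 19,641 bp were higher in mESCs, by 0.71 ± 0.24 and 0.73 ± 0.22. The former, the Cebpb peak at 167675079, lost its call without mESC 5 on BGI (edgeR adjusted p = 0.0583) and without MEF 1, MEF 2, mESC 1 or mESC 5 on Illumina (0.0639 to 0.105). The latter lost its call on Illumina without mESC 1 (edgeR adjusted p = 0.0731). The 2 peaks in Tmem189 introns at -8801 and -3592 bp and the one over the later part of the Cebpb exon did not pass. For the last, the Cebpb peak at 167689572, the log2 fold change was 0.29 ± 0.15 (edgeR adjusted p = 0.0933), and 7 of 15 alternatives passed, with an adjusted p of 0.0173 to 0.0473. On Illumina 5 of 15 passed, with 0.00789 to 0.0447. Summed over its 9 peaks, the locus had 82.9 ± 6.94 CPM in MEFs and 79.9 ± 11.6 in mESCs (SD, n = 3), so that rises and falls of single sites left the sum within its spread.

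Cebpd encodes C/EBPδ, the other early activator. It had 1 peak on BGI, over the start and the beginning of the coding sequence (chr16:15886938-15887439). MEFs had 31.0, 37.1 and 38.3 CPM and mESCs 13.3, 14.9 and 14.6 CPM. The lowest MEF value was above the highest mESC value by more than the range within either group. The log2 fold change was -1.38 ± 0.11 (edgeR adjusted p = 3.37e-09), 2.60-fold higher in MEFs, and -1.31 ± 0.09 on Illumina (2.48-fold). An Illumina peak without a BGI match, its midpoint 814 bp past the start, had 13.8 ± 0.805 CPM in MEFs and 13.0 ± 1.49 in mESCs (SD, n = 3) and did not pass the test (-0.13 ± 0.13, edgeR adjusted p = 0.353).

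Cebpg, which encodes the partner protein C/EBPγ, was the C/EBP gene whose promoter peak did not pass. It (chr7:35056368-35056869) had 31.3, 28.4 and 31.9 CPM in MEFs and 31.7, 34.9 and 30.1 CPM in mESCs on BGI. The groups overlapped, and the log2 fold change was 0.01 ± 0.10 (edgeR adjusted p = 0.911), and -0.04 ± 0.09 (0.668) on Illumina. The next peak, 585 bp into the gene, did not pass either (-0.27 ± 0.14, edgeR adjusted p = 0.0861), but it passed without MEF 2 (-0.35, edgeR adjusted p = 0.0407).

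The 3 other peaks of the Cebpg window lay in introns of the neighbouring gene Pepd, which encodes the peptidase prolidase, 20,059 to 29,663 bp from the Cebpg start and nearer to starts of Pepd. All 3 were lower in mESCs. The strongest (chr7:35036264-35036765) had 13.0, 14.3 and 18.8 CPM in MEFs and 1.64, 2.37 and 2.17 CPM in mESCs on BGI, a log2 fold change of -2.95 ± 0.21 (edgeR adjusted p = 5.86e-10), or 7.75-fold higher in MEFs. On Illumina it was -3.46 ± 0.20, or 11.0-fold. The next (chr7:35035148-35035649) had 9.46, 10.1 and 8.02 CPM in MEFs and 1.83, 2.13 and 1.99 CPM in mESCs, a log2 fold change of -2.28 ± 0.22 (edgeR adjusted p = 3.19e-08). Its Illumina match gave -3.33 ± 0.24. The third fell by 0.93 on the log2 scale. Which gene these sites act on was not measured.

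Pparg encodes PPARγ, and its annotated transcripts start at several places spread over the gene body. Coding sequences of 475 codons begin from the starts at 115360951 and 115362292, the PPARγ1 form, and one of 505 codons from the start at 115422066, the longer PPARγ2 form that is typical of fat cells. The peak at the first start (chr6:115360828-115361329) had 12.5, 12.6 and 9.56 CPM in MEFs and 11.7, 10.2 and 10 CPM in mESCs on BGI. The groups overlapped (log2 fold change -0.19 ± 0.16, edgeR adjusted p = 0.283), as they did on Illumina (-0.27 ± 0.14, 0.0793), where the Pparg peak at 115360823 passed without MEF 4 (-0.38, edgeR adjusted p = 0.0178). The peak at the next start (chr6:115362029-115362530) was lower overall and went the other way, with 4.66, 4.62 and 3.29 CPM in MEFs and 8.07, 8.99 and 10.3 CPM in mESCs. The log2 fold change was 1.05 ± 0.21 (edgeR adjusted p = 0.000147) and 0.98 ± 0.19 on Illumina, the largest rise in mESCs at the 5 loci on BGI.

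At the start of the PPARγ2 transcript no peak was present in either set, and no called summit lay within 1 kb in any of the 6 MEF or 6 mESC samples. The same held for the start at 115439975, and at 115383699 1 MEF sample had a summit, with a -log10 p of 2.28. For comparison, the strongest summit within 1 kb of the first start had a -log10 p of 41.9 to 98.1 in MEFs and 30.2 to 66.8 in mESCs. Absence of a summit at the loose threshold of the peak calls limits openness at this depth and does not show that it is nil.

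The 3 peaks in the distal part of Pparg were all lower in mESCs. The peak over a coding exon at 102,179 bp from the first start (chr6:115462880-115463381) had 8.45, 7.60 and 10.3 CPM in MEFs and 0.441, 0.710 and 1.12 CPM in mESCs, the latter from 7, 12 and 18 reads. The log2 fold change was -3.59 ± 0.30 (edgeR adjusted p = 3.86e-09). The peak in the last intron (chr6:115480250-115480751) had 15.0, 13.0 and 11.2 CPM in MEFs and 2.33, 2.60 and 2.24 CPM in mESCs, a log2 fold change of -2.51 ± 0.20 (edgeR adjusted p = 2.75e-09). The peak behind the gene (chr6:115493340-115493841) had 12.6, 12.2 and 15.8 CPM in MEFs and 0.441, 0.473 and 0.559 CPM in mESCs, from 7, 8 and 9 reads. It had the largest change at the 5 loci, -4.83 ± 0.25 (edgeR adjusted p = 1.38e-11), or 28.5-fold. Its Illumina match is centred on other bases of the site and gave -3.85 ± 0.30, or 14.4-fold. At 2 of the 3 sites, the exonic one and the one behind the gene, no mESC library had a summit inside the peak on either platform, whereas all 3 MEF libraries had one. At the last intron peak, 3 of 3 mESC libraries had a summit on BGI (-log10 p of 4.4 to 7.48) and 2 of 3 on Illumina. Summed, the 3 distal peaks had 35.4 ± 2.30 CPM in MEFs and 3.64 ± 0.371 in mESCs (SD, n = 3), and the 2 promoter peaks 15.7 ± 2.51 and 19.7 ± 0.549.

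**Figure D3:**
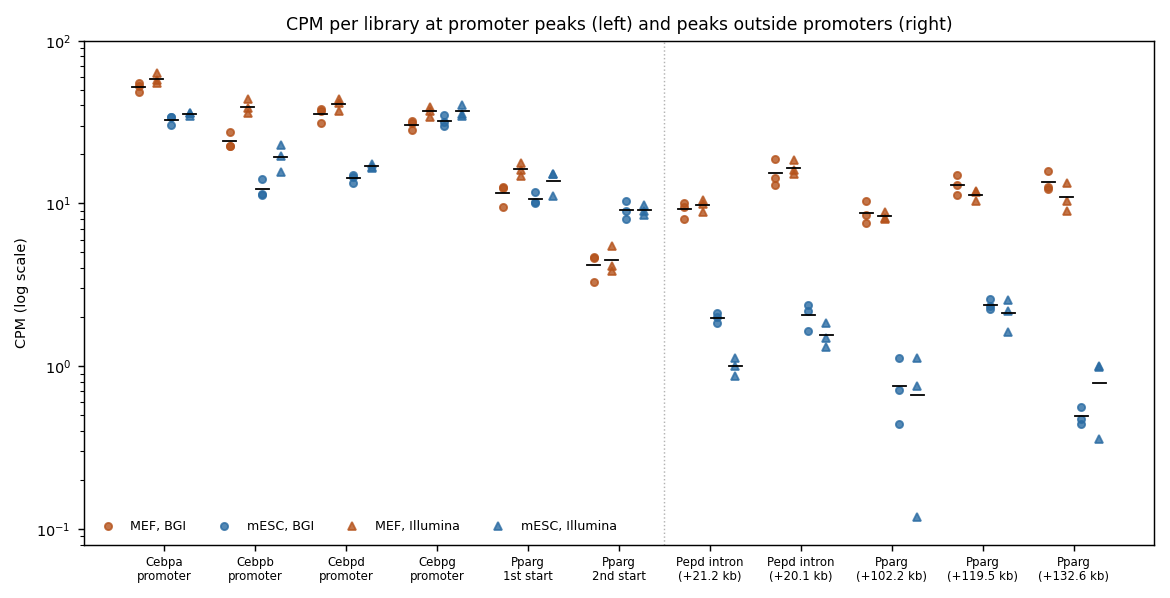
CPM of every library on a log scale at the promoter peaks of the 5 genes (left of the dotted line) and at 5 peaks outside promoters (right), with MEFs in brown, mESCs in blue, circles for BGI, triangles for the matching Illumina peak and a black bar at the mean of 3. At Cebpa, Cebpb and Cebpd the brown points sit above the blue ones, at Cebpg and the first Pparg start they overlap on both platforms, and on the right every MEF library is above 7 CPM and every mESC library below 3 CPM.

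The promoter peaks were also ordered by level. In MEFs on BGI it ran Cebpa (52.0 ± 3.27 CPM), Cebpd (35.5 ± 3.91), Cebpg (30.5 ± 1.90), Cebpb (24.2 ± 2.71), the first Pparg start (11.5 ± 1.72) and the next Pparg start (4.19 ± 0.783), all SD with n = 3, and Cebpd and Cebpg were the only neighbours whose libraries overlapped. In mESCs it ran Cebpa (32.7 ± 2.04), Cebpg (32.2 ± 2.48), Cebpd (14.3 ± 0.849), Cebpb (12.3 ± 1.67), the first Pparg start (10.6 ± 0.951) and the next one (9.10 ± 1.09). Here Cebpa overlapped with Cebpg, Cebpd with Cebpb, Cebpb with the first Pparg start and the first with the next Pparg start. On Illumina the order was not the same. In MEFs Cebpb (39.3 ± 4.02 CPM) stood above Cebpg (36.7 ± 2.57) and next to Cebpd (40.6 ± 3.52), and the libraries of these neighbours overlapped. In mESCs Cebpg (36.8 ± 3.01) stood above Cebpa (35.6 ± 0.807), and Cebpb (19.3 ± 3.51) above Cebpd (16.9 ± 0.429), both pairs with overlap (SD, n = 3).

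Sequence patterns were also counted over the whole 502 bp. The AP-1 pattern TGANTCA was present in 6 of the 23 BGI peaks, a share near the 25.2% of all 91,285 peaks searched. They were all 3 distal Pparg peaks, the A530013C23Rik intron peak that fell most at Cebpb, the Cebpb peak at 19,641 bp, which was higher in mESCs, and the one at -559 bp, which did not pass. The pattern was in 48.2% of the 20,301 peaks lower in mESCs by at least 2. All 3 distal Pparg peaks also held the C/EBP pattern TTGCNNAA, as did 6 of 23 at the loci, 17.3% of all peaks and 22.7% of those lower by at least 2. Of the 3 others, the Cebpb peaks at -13,586 and -1191 bp were higher in mESCs, and the Pepd intron peak at 29,663 bp was lower. The 2 strong Pepd intron peaks held neither. The octamer ATGCAAAT, which POU factors such as OCT4 recognise, was in none of the 23 peaks and in 3.2% of all. A match is a description of letters and not a bound site.

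The wider adipogenic network was read at 1 promoter peak per gene from 4 lists. Of 66 genes, 57 had a promoter peak, and on BGI 34 of these were lower and 3 higher in mESCs (64.9% called, beside 72.3% of all promoter peaks), with 36 and 3 on Illumina (68.4%, beside 74.0%). The median log2 fold change was -0.33 on both, and -0.13 over all promoter peaks. Among the other C/EBP, PPAR and RXR genes, 5 of 7 were lower and none higher on BGI. The share called, 71.4%, was near the 72.3% of all promoter peaks (41.0% lower and 31.3% higher). Falls were largest at Rxra, a partner receptor of PPARγ (26.2 ± 2.50 CPM in MEFs and 10.7 ± 0.684 in mESCs, SD, n = 3, log2 fold change -1.35), at Rxrg (-1.27) and at Ppara (-0.83). Cebpe had no promoter peak.

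Among 19 regulators that promote adipogenesis, 11 were lower, none was higher and 8 did not pass on BGI (57.9% called, beside 72.3% of all promoter peaks, 41.0% lower and 31.3% higher). The largest falls were at Ppargc1a, a coactivator of PPARγ (13.7 ± 2.57 and 3.34 ± 0.79 CPM, SD, n = 3, log2 fold change -2.10), at Stat5a (-1.24) and at Nr3c1, the glucocorticoid receptor (-1.14). Among 16 regulators that restrain adipogenesis, 8 were lower, Sirt1 was higher (0.41) and 7 did not pass (56.2% called, against the same background). Dlk1, a marker of preadipocytes, changed by -1.85 on the log2 scale and Trib2 by -1.07. The median log2 fold changes were -0.37 for the promoting and -0.22 for the restraining genes.

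Of 23 adipocyte targets and markers, 8 had no promoter peak, namely Fabp4, Adipoq, Lep, Cidec, Cd36, Cfd, Pck1 and Gpd1. Of the 15 with one, 10 were lower and 2 higher in mESCs on both platforms (80.0% called, beside 72.3% of all promoter peaks on BGI and 74.0% on Illumina). Fasn, the fatty acid synthase (54.2 ± 2.74 and 29.6 ± 3.16 CPM, SD, n = 3, log2 fold change -0.94), Lpl (-0.84) and Fabp5 (-0.80) fell, whereas Retn, which encodes resistin (1.81), and Pnpla2, a triglyceride lipase (0.26), rose.

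Promoter peaks with the most similar pattern over the 12 samples of the BGI set were sought among 17,266 others, by Euclidean distance of log2(CPM + 1). For Cebpa these were Gfpt1 (0.21), Ephb4 (0.27) and Rcan1 (0.27), for Cebpb Lats2 with Gm49361 (0.56), Hdac7 (0.56) and Klhl35 (0.61), and for Cebpd Trabd with 1810021B22Rik (0.42), Ndrg1 with Gm2895 (0.44) and Adamts1 (0.46). For Cebpg they were Naa16 (0.23), Trim27 (0.25) and Ube2r2 (0.28), and for Pparg Sfxn1 (0.45), Gm42517 with Gm10419 (0.52) and Syt17 (0.56).

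The next comparison asked what the sequencer changes at these loci, with the same libraries on both platforms. GC-rich promoter peaks had lower CPM on BGI. In MEFs, 2 of the 21 peaks of the MEF peak set passed without a block (all peaks: 4.06%, and 3.96% lower on BGI), both at Cebpb and both lower on BGI. With the library number as a block, which pairs the 2 readings of a library, 10 of 21 passed (all peaks: 29.2%, and 15.3% lower), all lower on BGI and all promoter peaks. In mESCs 5 of 15 passed without the block (all peaks: 3.23%, and 3.19% lower) and 8 with it (all peaks: 21.3%, and 15.6% lower), again all lower on BGI and all promoter peaks. Without a block, none passed in MEFs when MEF 1 or MEF 2 was left out and 5 when MEF 4 was, and in mESCs 0, 3 and 0 without mESC 1, 3 and 5.

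The Cebpb promoter peak showed this most clearly in MEFs. Its MEF set peak (GC content 77.8%) had 25.2 ± 2.58 CPM on BGI and 40.5 ± 4.31 on Illumina (SD, n = 3), and the log2 ratio of BGI to Illumina was -0.73, -0.64 and -0.69 in MEFs 1, 2 and 4. All 3 libraries moved by nearly the same amount, and the blocked fit gave -0.71 ± 0.06 (edgeR adjusted p = 9.76e-16). In mESCs the largest ratio was that of the peak in the Cebpa coding sequence (GC content 75.5%), -0.60, -0.82 and -1.13 in mESCs 1, 3 and 5, with -0.89 ± 0.12 in the blocked fit (edgeR adjusted p = 9.15e-12). The study listed this peak as reproducible in mESCs on Illumina and not on BGI. It was in the set through the platform where it was high, so its ratio and p-value are not free of that choice.

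Over the locus peaks the blocked log2 ratio fell with GC content (Spearman's rho -0.81 across 21 peaks in MEFs and -0.907 across 15 in mESCs, a description across peaks that share libraries). Its median was -0.27 for promoter peaks and 0.10 for the other peaks in MEFs, and -0.36 and 0.06 in mESCs, beside 0.07 and 0.01 over all peaks. The median GC content was 66.4% for locus promoter peaks and 51.4% for all peaks in MEFs, and 69.5% and 52.8% in mESCs. Medians over all promoter peaks are not given, so these values are not shown to be particular to the loci. With an offset for GC content added to the block, 1 of the 21 peaks passed in MEFs (all peaks: 11.5%, and 5.26% lower) and 2 of the 15 in mESCs (all peaks: 8.59%, and 5.66% lower). The 1 in MEFs was the second Cebpd peak (log2 ratio -0.40, edgeR adjusted p = 0.00154), and the 2 in mESCs were the peak in the Cebpa coding sequence (-0.37, 0.0264) and the inner Cebpg promoter peak (-0.33, 0.000442). The Cebpd and Cebpa peaks were listed as reproducible in their cell type on Illumina and not on BGI. Both were in the sets through the platform where they were high, so their ratios and p-values are not free of that choice.

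**Figure D4:**
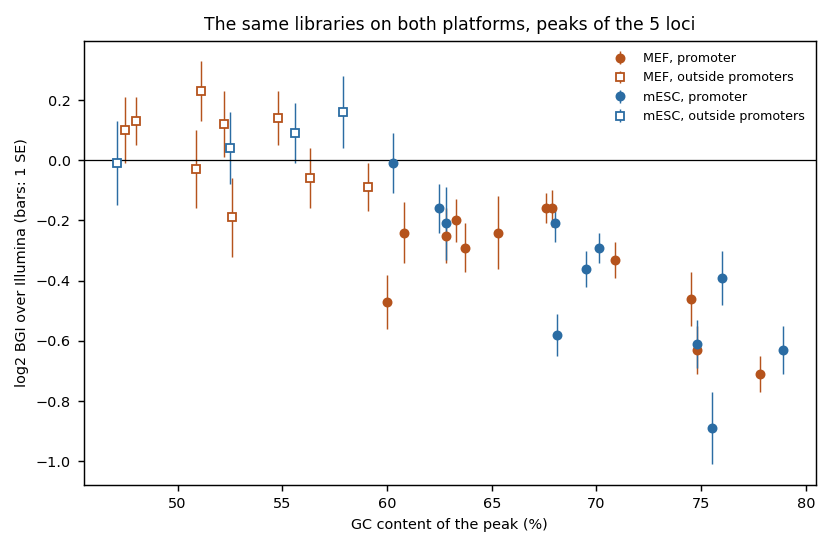
log2 ratio of BGI to Illumina from the fit with library as a block, with 1 SE, against the GC content of each locus peak, for MEFs (brown, 21 peaks) and mESCs (blue, 15 peaks), filled for promoter peaks and open for the others. Points below 60% GC lie between -0.19 and 0.23, and those above 70% GC lie at -0.29 or lower.

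The mESC to MEF contrast compares cell types within a platform. The difference of the contrast between platforms, tested on all 12 samples of the BGI set, passed at none of the 23 peaks without a block, nor at any of the 91,354 peaks, of which 2386 had an unadjusted p under 0.05, 1 of them at the loci. With the block it passed at 1 locus peak, beside 0.386% of all peaks. This was the Pepd intron peak chr7:35035148-35035649, where the fall in mESCs was larger on Illumina.

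The counted peaks do not hold every open site of the windows. Called summits with a -log10 p of at least 10 lay outside the peaks of both sets at 44 sites, and 3 of these were present in all 6 MEF samples and no mESC sample, all at Cebpa. Their summits were at -1162 bp, at 2046 bp in the 3′ untranslated region and at 8012 bp from the Cebpa start, with a -log10 p of up to 48.6, 24.9 and 22.8. A single site was present in all 6 mESC samples and no MEF sample, 138,742 bp from the first Pparg start and outside any gene (-log10 p of up to 17.9). These sites had no counts and were not tested.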

How the data were processed

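The members and lists were chosen with earlier results of these data known. The authors aligned reads to GRCm38.p6, removed duplicates, down-sampled MEFs to 60 M and mESCs to 45 M reads, called peaks per sample with MACS2 and deposited raw counts per peak for each peak set, without normalization. The deposited peak calls give a score, a fold enrichment (ratio) and -log10 p and q per summit, and the lists of reproducible peaks only positions. Columns without a platform name were taken as Illumina. Their ratios to the BGI columns followed those of summit fold enrichment across peaks (Spearman's rho 0.78 to 0.814 in the 6 libraries). No per-sample column was left unused.

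CPM used the reads counted in a peak set. Counts were tested with edgeR 4.0.16 (TMM, filterByExpr, glmQLFTest, two-sided, R 4.3.3) and with DESeq2 1.42.0 as an alternative. Fold changes are edgeR's, and SE is the log2 fold change divided by the root of F. The fits were tested on simulated data. Peaks within 1 kb of an annotated start were promoter peaks. Peaks named in full were the promoter peak, the called peak with the largest change in each direction and the highest peak of each gene, and of each list the 3 genes with the largest change per direction called on both platforms. Those named beyond this were chosen after their values were seen. One gene that this rule names is not reported here. Library numbers pair the platforms because both read the same libraries: after removal of group means, the correlation of same-numbered samples was between 0.617 and 0.837 (MEFs) or 0.515 and 0.725 (mESCs). MEFs and mESCs share no library. Counting error alone limits peaks with few reads. Some antisense or overlapping genes share a peak, and ATAC reads carry no strand.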

Additional observations from a re-analysis of the deposited data

Results flagged for a closer look

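The fall at the Pepd intron peak in the Cebpg window (chr7:35035148-35035649) differed between platforms. On the same peak, MEFs 1, 2 and 4 had 9.46, 10.1 and 8.02 CPM on BGI and 9.85, 10.3 and 8.81 CPM on Illumina. The mESCs 1, 3 and 5 had 1.83, 2.13 and 1.99 CPM on BGI and 0.867, 1.05 and 1.05 CPM on Illumina. The log2 ratio of BGI to Illumina was -0.06, -0.03 and -0.14 in MEFs and 1.08, 1.02 and 0.93 in mESCs, so that it was above 0 in 3 of 3 mESC libraries and below 0 in 3 of 3 MEF libraries. The difference of the ratios, mESC minus MEF, was 1.18 ± 0.27 on the log2 scale with libraries as a block (edgeR adjusted p = 0.0303). Without the block it was also 1.18 and did not pass (edgeR adjusted p = 1.0, unadjusted 0.000826). The mESC values on BGI rest on 29, 36 and 32 reads and those on Illumina on 14, 18 and 17. The peak was lower in mESCs on both platforms.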

How the results depend on the processing

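Of the 16 locus peaks called on BGI, 15 were called under every alternative other than the required fold, and 14 of 16 on Illumina, and none of them changed direction. The exceptions, all at Cebpb and all higher in mESCs, are named with the results. Requiring a log2 fold change of at least 1 left 8 calls on BGI and 7 on Illumina, all lower in mESCs and 0 higher. No share of all peaks is given for this requirement, so these counts describe the locus peaks alone. Leaving out 1 library gave 16 to 18 calls on BGI (4 to 6 higher, 12 to 13 lower) and 14 to 17 on Illumina (2 to 5 higher, 12 to 13 lower; 2 higher without mESC 1). Down-sampled depths as library sizes moved the median of all peaks by 0.14 on BGI and 0.13 on Illumina. Other windows gave 50% to 69.6% called on BGI and 50% to 66.7% on Illumina, and the lists gave 59.6% to 66.7% (BGI) and 59.6% to 70.2% (Illumina) without 1 library.

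Between platforms, the replicate block gave 10 calls in MEFs and 8 in mESCs in place of 2 and 5, the block with a GC offset 1 and 2, and DESeq2 5 in MEFs. Without 1 library there were 0 to 5 calls in MEFs and 0 to 3 in mESCs. The block without 1 library, added after seeing the data, gave 7 to 13 calls in MEFs (7 to 12 lower and 0 to 1 higher on BGI) and 7 to 8 in mESCs. For the difference of the contrast, the block gave 1 call, higher on BGI, in place of 0. Shares of all peaks are not given for DESeq2 or for fits without 1 library, whose counts describe the locus peaks alone. The causes were not tested. No paired analysis of mESCs against MEFs was possible because they share a single library number, which marks different cells.

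Between mESCs and MEFs, sign changes occurred where no call was made. The Cebpb peak at -3592 bp ranged from -0.37 to 0.03 without 1 library (0.03 without MEF 4 and 0.03 without mESC 3, BGI), and that at -552 bp from -0.06, without mESC 1, to 0.32 (Illumina). The Cebpg promoter peak on BGI came to -0.03 with Illumina samples, -0.0031 with platforms summed, -0.03 without MEF 2 and -0.02 without mESC 3, and on Illumina to 0.08 with down-sampled depths, 0.00083 with reads in peaks only, 0.02 without MEF 1 and 0.01 without mESC 5 (lowest without 1 library -0.16). The peak in the Cebpa coding sequence came to -0.14 with BGI samples, -0.06 with platforms summed, -0.06 without MEF 1, -0.01 without MEF 4 and -0.03 without mESC 3. Between platforms, 4 of the 10 peaks called with the block in MEFs and 3 of the 8 in mESCs, all lower on BGI and none of them called without the block, changed sign when the GC offset was added, and none of these passed with it. The log2 ratio came to 0.11 at Cebpa, 0.11 at Cebpd, 0.05 at Cebpg and 0.06 at Pparg in MEFs, and to 0.05 at Cebpa, 0.02 at Cebpg and 0.14 at Pparg in mESCs.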
